A study of Rattus norvegicus with 15 samples.

Results

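The genes described here are those of the synaptic vesicle release machinery, taken as every gene whose symbol begins with or equals Syt, Stx, Stxbp, Vamp, Snap, Syn, Sv2, Rab3, Cplx, Rims or Unc13 followed by a number or letter of that family. They were measured on Affymetrix rat expression arrays in the ventral tegmental area, a midbrain source of dopamine for the forebrain. Of 31042 probe sets that were not controls, 20826 carried exactly 1 gene symbol, standing for 14217 genes, and 114 of these probe sets matched the names. They stood for 78 genes. Each gene was represented by its probe set with the highest mean over all 15 arrays, so 49 genes had no choice of probe set and 29 had several. A filter on dim probe sets, at a mean log2 value of 6.94, left 59 of the 78 genes tested.

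The study compared 7 rats given ethanol with 8 age-matched rats given water, and each rat had its own array. Alcohol-preferring (P) rats, a line selected for high alcohol intake, and loss-of-control drinking are named in the title of the series, whereas the design text mentions selection for high and for low intake. The labels separate the rats only by ethanol or water, and sex, age in days, the drinking schedule and the time from the last drink were not stated. None of the 15 arrays was labelled as ethanol rat 3, and all 15 were used.

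Neurons release transmitter when a vesicle fuses with the plasma membrane at the active zone. Fusion is driven by SNARE proteins, a vesicle SNARE (synaptobrevin, encoded by Vamp genes) pairing with plasma membrane SNAREs (syntaxin and SNAP-25). Synaptotagmins sense calcium, complexins clamp and promote fusion, Munc13 (Unc13) and RIM (Rims) proteins prime vesicles, Rab3 proteins tether them, and synapsins hold the reserve pool. The dopamine neurons of this region also release dopamine from their cell bodies and dendrites.

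The name pattern is wider than that machinery. Of the 78 genes, 35 were listed here under neuronal exocytosis, and 26 of these were tested. The list was a choice, and it placed Vamp7 and Syt4 among the other genes. The other 43 genes, 33 of them tested, include 11 Rab GTPases that match only because their number begins with 3 (such as Rab31 and Rab33b), 9 SNAREs of endosomes and the Golgi, and Snap91, a clathrin adaptor of vesicle recycling. The 19 genes below the filter had mean log2 values from 4.64 to 6.76 and included Syt2, Unc13a, Unc13b, Syn3 and Rims3.

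The tissue label was checked against dopamine neuron markers. Th, the rate-limiting enzyme of dopamine synthesis, had log2 values from 14.72 to 15.26 in ethanol rats and from 14.44 to 15.10 in water rats, and 9 of 11 dopamine neuron markers passed the filter. One water rat stood apart in its cell type markers. Water rat 5 had the highest oligodendrocyte marker mean of all rats (13.86), the lowest general neuron marker mean (12.68) and the lowest level of Slc17a6, the vesicular glutamate transporter of subcortical neurons (9.98 against 11.15 to 13.31 in the other 14 rats). Nothing in the labels gives dissection, labelling or hybridization days, so no batch could be tested.

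No release machinery gene passed the test between ethanol and water rats. Of the 59 genes tested, 0 were called at an adjusted p below 0.05 by limma, against 173 of 18625 probe sets on the array, or 0.929%. At an unadjusted p below 0.05 there were 10 of the 59 genes, or 16.9%, 4 with higher and 6 with lower means in ethanol rats, against 12.1% of all probe sets tested. With the arrays shifted to the same median there were 8 (13.6%, against 12.4% of all probe sets), 0 with higher and 8 with lower means. Rab3b, Rab3d, Stx7 and Vamp5 were no longer among them. Without ethanol rat 2 (6 genes) or water rat 8 (5 genes), 0 had higher means too. Over the 59 genes, 29 means were higher and 30 lower in ethanol rats, and the median difference was -0.0024 log2 units, against 0.0062 over all probe sets. Differences ran from -0.24 to 0.21 log2 units. In none of the 59 did the ethanol and water rats fail to overlap. Groups that did not overlap were rare on the array too, in 116 of 18625 probe sets. A count of 0 in 59 therefore does not set these genes apart. In bulk tissue, fewer cells of a type and less RNA per cell cannot be told apart.

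The data bound how far the array signals of these genes could have differed. The median standard error (SE) of a difference was 0.056 log2 units for the genes, the same as over all probe sets. The 95% confidence interval of the difference lay within a 1.2-fold change in either direction for 43 of the 59 genes and within 1.5-fold for 58. The exception was Vamp1. These intervals are those of limma's moderated fit for single genes and are not adjusted for the number of genes. They hold for the signal of the chosen probe set. Array values can be compressed in very dim and very bright probe sets, so differences in RNA could be larger there.

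Genes of neuronal exocytosis and the other matched genes are given apart. Of the 26 exocytosis genes tested, 2 had an unadjusted p below 0.05 (7.69%) and the median difference was 0.012 log2 units. Among the 33 other genes, 8 had such a p (24.2%) and the median was -0.014. Over all probe sets tested, 12.1% had such a p. The differences between these shares were not tested.

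**Figure D1:**
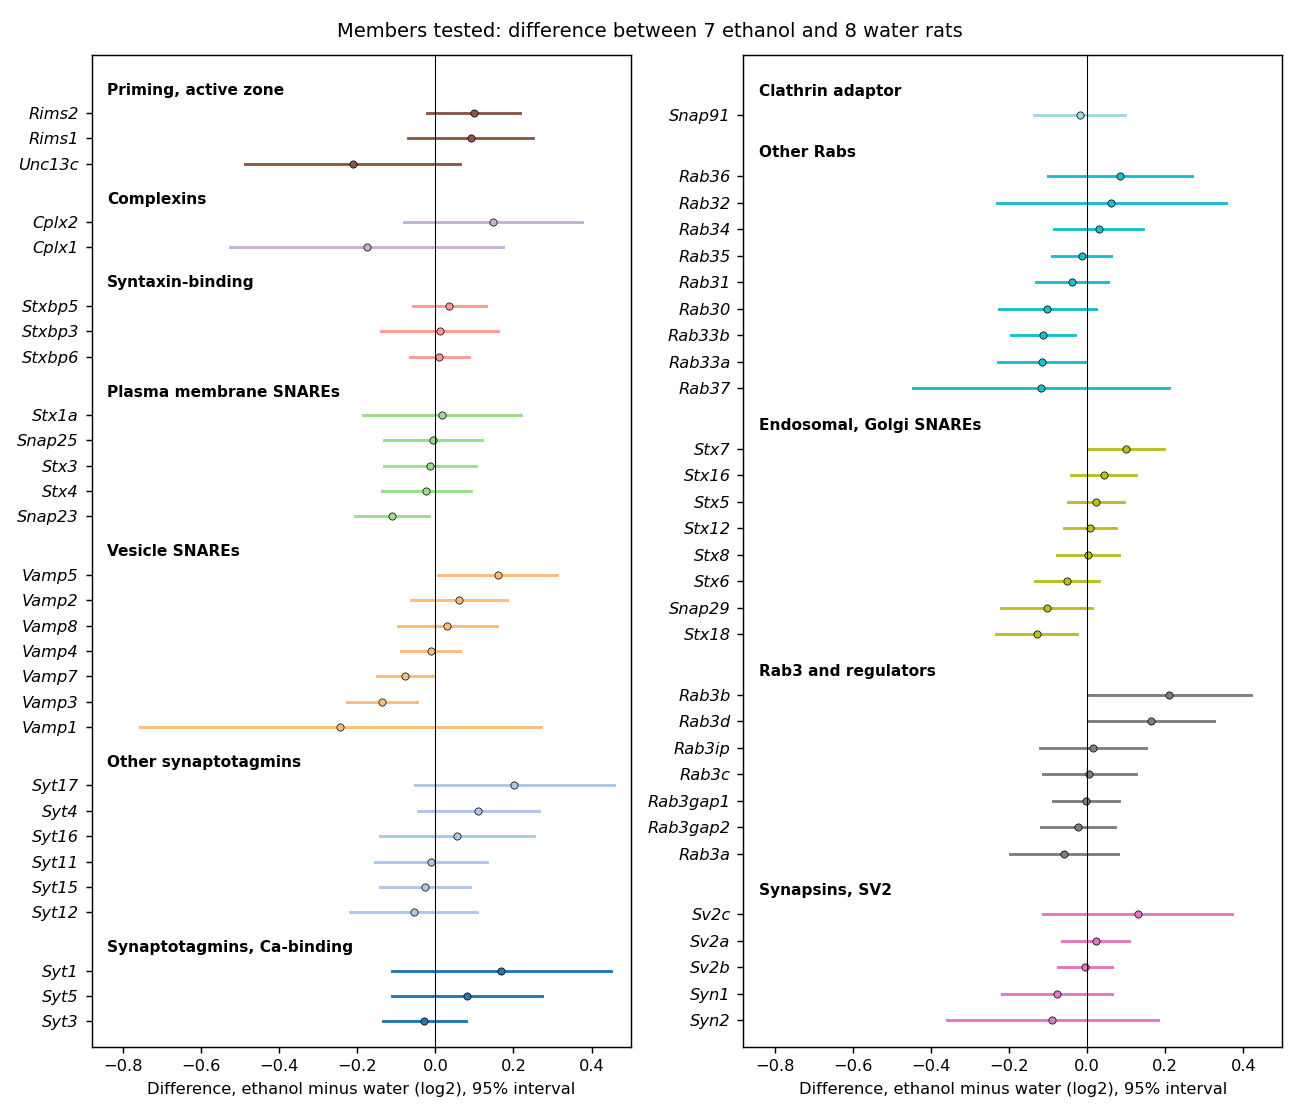
Difference between 7 ethanol and 8 water rats for each of the 59 tested genes, as the log2 difference (point) with its 95% confidence interval (line), grouped by role. Most intervals cross 0, the widest belongs to Vamp1 (-0.76 to 0.27), and the points lie between -0.24 and 0.21.

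The plasma membrane SNAREs of the synapse did not pass the test. Snap25, which encodes the SNARE that botulinum toxin A cleaves, had log2 values of 14.64, 14.78 and 14.84 (lowest, median and highest) in ethanol rats and 14.56, 14.79 and 14.98 in water rats. The ethanol rats lay inside the water range. The difference was -0.0062 (SE 0.059, 95% interval -0.13 to 0.12; limma adjusted p = 0.976). Stx1a, the syntaxin of the presynaptic membrane, differed by 0.017 (95% interval -0.18 to 0.22).

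Vesicle SNAREs held both the gene with the smallest p and the gene with the widest spread. Vamp3, cellubrevin, a vesicle SNARE of glia and of recycling endosomes, had values of 11.52, 11.56 and 11.64 in ethanol rats and 11.59, 11.70 and 11.90 in water rats. All 7 ethanol rats lay below the water mean, and the ranges overlapped at their ends. The difference was -0.14 (SE 0.042, 95% interval -0.23 to -0.048; limma adjusted p = 0.173, the smallest of the 59 genes), and without water rat 5 it was -0.11 (adjusted p = 0.188).

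Vamp2, the main synaptobrevin of forebrain synapses, ran from 11.99 to 12.33 (median 12.20) in ethanol rats and from 11.90 to 12.22 (median 12.11) in water rats. The ranges overlapped over most of their length, with a difference of 0.060 (95% interval -0.063 to 0.18; limma adjusted p = 0.712). Vamp1, the synaptobrevin of the brainstem and spinal cord, ran from 12.03 to 13.19 (median 12.57) in ethanol rats and from 12.07 to 13.61 (median 12.98) in water rats. Its pooled SD within groups, 0.524, was the highest of the 59 genes, and its difference of -0.24 had an SE of 0.24 (limma adjusted p = 0.720). Among the remaining vesicle SNAREs, Vamp7, which acts at lysosomes and in neurite growth, differed by -0.077 (adjusted p = 0.371) with 7 of 7 ethanol rats below the water mean. Vamp5 differed by 0.16 (adjusted p = 0.387) with 6 of 7 above it.

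**Figure D2:**
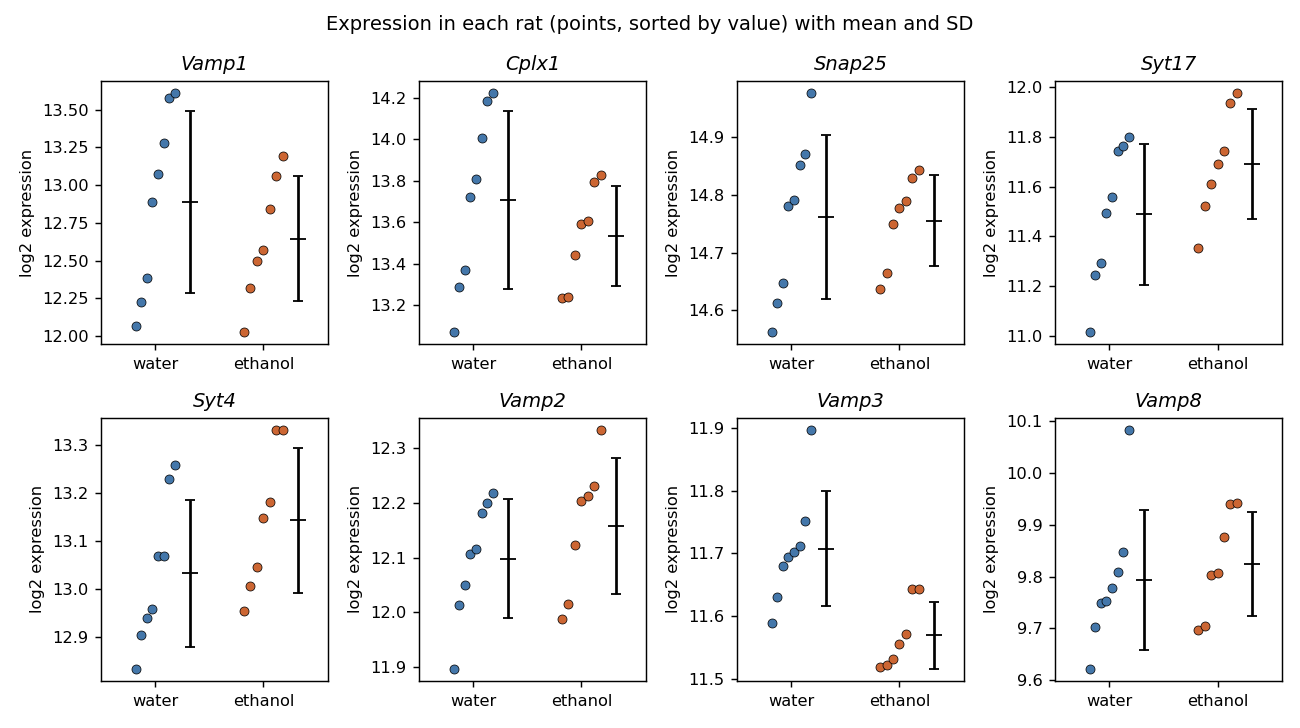
Log2 expression of 8 genes in each rat (points, sorted by value within a group) with the group mean and SD beside them, for 8 water and 7 ethanol rats. Vamp1 and Cplx1 spread over more than 1 log2 unit between rats of both groups together, while all 7 ethanol rats lay below the water mean of Vamp3.

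Complexins spread widely between rats. Cplx1, which binds the assembled SNARE complex, ran from 13.23 to 13.83 (median 13.59) in ethanol rats and from 13.07 to 14.22 (median 13.76) in water rats, and the ethanol rats lay inside the water range. The difference was -0.18 (SE 0.17, 95% interval -0.52 to 0.17; limma adjusted p = 0.701). Cplx2 differed by 0.15 (95% interval -0.081 to 0.37; adjusted p = 0.614).

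Among calcium-binding synaptotagmins, 3 of 8 were tested. Syt1, the fast calcium sensor of forebrain synapses, ran from 7.41 to 8.07 (median 7.72) in ethanol rats and from 7.12 to 8.04 (median 7.54) in water rats. The ranges overlapped, 6 of 7 ethanol rats lay above the water mean, and the difference was 0.17 (SE 0.13, 95% interval -0.11 to 0.45; limma adjusted p = 0.638). Syt3 differed by -0.028 (adjusted p = 0.858). Syt2, the fast sensor of hindbrain synapses, lay below the filter at 5.66 ± 0.19 (SD, n = 7) and 5.77 ± 0.28 (SD, n = 8). Of the 8 other synaptotagmins, 6 were tested, and Syt4, found on dense-core vesicles, differed by 0.11 (SE 0.074; adjusted p = 0.580).

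Priming genes were thinly covered, with 3 of 7 tested. Rims1 and Rims2, scaffolds of the active zone, differed by 0.091 (95% interval -0.069 to 0.25) and 0.098 (adjusted p = 0.505). The mean log2 value of Rims1, 7.04, was close to the filter at 6.94. Unc13c, a Munc13 of the cerebellum, differed by -0.21 (SE 0.13, 95% interval -0.49 to 0.062; limma adjusted p = 0.542). Unc13a, the main Munc13 of the brain, lay below the filter. Fitted with no filter, the 19 dim genes had differences from -0.14 to 0.24, 3 of them at an unadjusted p below 0.05 and none called (smallest adjusted p = 0.368, for Unc13b). Of all 31042 probe sets in that fit, 9.94% had an unadjusted p below 0.05 and 0.448% were called.

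Rab3 GTPases, which mark synaptic and secretory vesicles, included 2 genes at an unadjusted p below 0.05. Rab3b, known to be higher in dopamine neurons of this region than in those of the substantia nigra, had values of 9.88, 10.12 and 10.43 in ethanol rats and 9.53, 9.97 and 10.29 in water rats. Ethanol rats 1 and 6 lay above the water range and the others inside it. The difference was 0.21 (SE 0.098; limma adjusted p = 0.408). Rab3d, the Rab3 of secretory granules, differed by 0.16 (adjusted p = 0.405) with 7 of 7 ethanol rats above the water mean. Rab3a, the most studied synaptic form, differed by -0.059 (95% interval -0.20 to 0.080), and Rab3c by 0.0060 (95% interval -0.11 to 0.12).

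Synapsins and SV2 proteins gave no p below 0.05. Syn1 differed by -0.078 (95% interval -0.22 to 0.064) and Syn2 by -0.089 (95% interval -0.36 to 0.18). Sv2a, the target of the drug levetiracetam, differed by 0.022 (95% interval -0.063 to 0.11). By its chosen probe set, Sv2b had the lowest SE of this class, with a difference of -0.0053 (SE 0.033, 95% interval -0.074 to 0.064). A second Sv2b probe set gave -0.039 with a wider interval (SE 0.12, 95% interval -0.29 to 0.21). Sv2c, whose mean log2 value of 6.97 lay just above the filter at 6.94, differed by 0.13 (95% interval -0.11 to 0.37). Stxbp3, a syntaxin-binding protein, differed by 0.011 (95% interval -0.14 to 0.16).

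Genes not listed under neuronal exocytosis, Vamp3, Vamp5 and Vamp7 among them, made up 8 of the 10 genes at an unadjusted p below 0.05. They made up 33 of the 59 genes tested. Rab33b, a Golgi Rab, had values of 9.62, 9.72 and 9.81 in ethanol rats and 9.75, 9.85 and 9.92 in water rats, and all 7 ethanol rats lay below the water mean while the ranges overlapped. The difference was -0.11 (SE 0.039; limma adjusted p = 0.229). Stx18, a SNARE of the endoplasmic reticulum, differed by -0.13 (adjusted p = 0.282), and Snap23, the widely expressed relative of Snap25, by -0.11 (adjusted p = 0.315). In both, 7 of 7 ethanol rats were below the water mean. Rab33a differed by -0.12 (adjusted p = 0.399) and Stx7, an endosomal syntaxin, by 0.099 (adjusted p = 0.408). Without water rat 5, Rab33a (-0.088), Rab3b (0.19), Rab3d (0.16) and Stx7 (0.091) were no longer at an unadjusted p below 0.05, which left 6 genes. Leaving out each of the 15 rats in turn left 4 to 9 of the 59 genes at an unadjusted p below 0.05, and none called. These were 6.78% to 15.3% of the genes, while 9.85% to 14.2% of all probe sets had such a p.

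Second probe sets bore on single genes. Another probe set above the filter existed for 19 of the 59 genes, 20 in all, and 14 of them had a difference of the same sign as the chosen one. None was called, the smallest adjusted p being 0.220 for Stx5, a Golgi syntaxin, whose second probe set differed by -0.18 and the chosen one by 0.022. The deviations from group means of both probe sets correlated above 0.5 in 11 of 20, among them Vamp1 (r = 0.977), Syt17 (0.956) and Cplx1 (0.894). For Sv2b (r = -0.041) and Rab34 (-0.172) the probe sets did not track each other. Low r also stood for Rab30 (0.126), Stxbp5 (0.143), Rab31 (0.179), Stx5 (0.192), Vamp4 (0.217) and Stx12 (0.225).

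Genes of the vesicle cycle outside the name pattern did not pass the test either. Of 53 listed genes, such as transporters that fill vesicles, synaptophysins and calcium channels, 42 were tested and 0 called, against 0.929% of all probe sets. An unadjusted p below 0.05 was found for 2 of the 42 (4.76%), against 12.1% of all probe sets. The 2 were the membrane carriers Scamp1 (log2 difference 0.087, limma adjusted p = 0.324) and Scamp5 (-0.16, adjusted p = 0.327). The median difference was 9.8e-04 log2 units, with a range from -0.35 for Synpr to 0.24 for Cadps2.

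Some release genes varied widely between rats of the same group. The median pooled SD within groups was 0.111 log2 units for the 59 genes and 0.111 over all probe sets, but 11 of the 59 lay above the 90th percentile of all probe sets, among them Vamp1, Cplx1, Rab37, Rab32, Syt1, Unc13c, Syn2 and Syt17. Each gene's deviations from its group mean over the 15 rats were therefore set against the mean of each of 8 cell type marker lists, which gave 472 relations. The permutation test shuffled rats within groups (100000 permutations, so that 1e-05 is the smallest p it can give) and was adjusted over the 472. In all, 50 relations passed, involving 25 genes. The values of a rat come from the same array, so genes and markers share its labelling and normalization.

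A first set of genes tracked the general neuron markers. Cplx1 followed their mean with r = 0.976 and rho = 0.964 (permutation p = 1e-05 for both, adjusted p = 6.74e-04), with r = 0.947 within ethanol rats and 0.984 within water rats. Without the 2 rats farthest from the median of the marker mean r was 0.961. Vamp1 had r = 0.972 and rho = 0.971 (adjusted permutation p = 6.74e-04 for both), and r = 0.968 without those 2 rats. Snap25 had r = 0.965 and rho = 0.964 (adjusted permutation p = 6.74e-04 for both), and r = 0.946 without them.

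Further genes of this set, with adjusted permutation p from 0.00142 for Rab3a to 0.0458 for Syt12, were Rab32 (r = 0.897), Rab3a (0.893), Rab3gap2 (0.886), a subunit of the enzyme that turns Rab3 off, Syn2 (0.874), Rab3ip (0.784), Snap91 (0.762) and Syt12 (0.722). Without the 2 farthest rats their r ran from 0.542 for Snap91 to 0.874 for Syn2, and by rho Syt12 did not pass (adjusted permutation p = 0.0902). Second probe sets gave lower r with the neuron mean. It was 0.947 for Vamp1, 0.864 for Cplx1, 0.738 for Rab3ip, 0.668 for Rab3a, and 0.615 and 0.677 for Syn2. Vamp2 went the other way (r = -0.692, rho = -0.771; permutation p = 0.00374, adjusted p = 0.0411; r = -0.684 without the 2 farthest rats), as did Rims2 (r = -0.741, adjusted permutation p = 0.0473), a relation that failed the threshold in most fits with 1 rat left out. Water rats 7 and 8, the rats with the highest Vamp1, were among the lowest in Vamp2.

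The neuron mean was dominated by neurofilament genes. Nefl and Nefm had SDs of 1.47 and 1.31 log2 units among water rats, so the mean without them is a different measure. Against that mean, r was 0.723 for Cplx1, 0.711 for Vamp1, 0.703 for Snap25, 0.598 for Syn2, 0.825 for Rab3a and -0.261 for Vamp2. For Snap91 r was 0.942 and for Rab3ip 0.871. Permutation p values are given only as a count: 11 genes passed against this mean, against 12 with the neurofilament genes included. These need not be the same genes. Without the neurofilament genes r was -0.523 for Rims2, 0.624 for Rab3gap2, 0.765 for Syn1, 0.715 for Sv2a and -0.765 for Vamp3. Cplx1 (r = 0.907), Vamp1 (0.885) and Snap25 (0.882) also followed Slc17a6, which itself correlated at r = 0.907 with the neuron mean.

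The list of inhibitory and fast-firing markers joined genes that differed in opposite ways between rats. Its fast-firing genes, Nefh (a further neurofilament), Pvalb and the potassium channel Kcnc1, had a mean that correlated at r = -0.505 with the mean of its GABA genes Gad1, Gad2 and Slc32a1. The joint mean gave r = 0.868 for Snap25, 0.840 for Cplx1, 0.832 for Vamp1 and 0.779 for Syn2. The list was split once these values were known, and the resulting 118 relations were adjusted together. Against the fast-firing mean, r was 0.974 for Vamp1, 0.967 for Cplx1 and 0.963 for Snap25 (rho = 0.971, 0.975 and 0.971; adjusted permutation p = 2.95e-04 for each r and rho). These r were 0.962, 0.960 and 0.949 without the 2 farthest rats. Against the GABA mean, r was -0.593 for Vamp1, -0.561 for Cplx1 and -0.496 for Snap25 (rho = -0.532, -0.446 and -0.429), and none passed (adjusted permutation p = 0.109, 0.143 and 0.218). They were -0.322, -0.238 and -0.248 without the 2 farthest rats. In all, 13 genes passed with the fast-firing mean and 3 with the GABA mean.

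Promoter sequences are shown for 4 genes of this first set, Vamp1, Cplx1, Syn2 and Rab3a, because these genes moved together between rats. Each is the 250 bases before the annotated gene start, 5′ to 3′ along the gene, from RefSeq on the GRCr8 build. Capitals mark the GC box GGGCGG on either strand, and in Vamp1 also the cyclic AMP response element TGACGTCA.
Vamp1 promoter, chr4:159698644-159698893, plus strand: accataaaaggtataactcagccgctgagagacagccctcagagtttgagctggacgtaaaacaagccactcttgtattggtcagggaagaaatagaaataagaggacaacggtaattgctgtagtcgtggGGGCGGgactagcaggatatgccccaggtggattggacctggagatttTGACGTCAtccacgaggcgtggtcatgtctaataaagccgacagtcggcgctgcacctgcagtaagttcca
Cplx1 promoter, chr14:1328823-1329072, plus strand: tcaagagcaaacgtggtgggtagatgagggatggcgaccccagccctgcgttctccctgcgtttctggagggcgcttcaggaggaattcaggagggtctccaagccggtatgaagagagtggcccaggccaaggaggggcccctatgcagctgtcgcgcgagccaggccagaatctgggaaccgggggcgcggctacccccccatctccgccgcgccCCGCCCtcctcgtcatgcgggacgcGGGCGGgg
Syn2 promoter, chr4:149858669-149858918, plus strand: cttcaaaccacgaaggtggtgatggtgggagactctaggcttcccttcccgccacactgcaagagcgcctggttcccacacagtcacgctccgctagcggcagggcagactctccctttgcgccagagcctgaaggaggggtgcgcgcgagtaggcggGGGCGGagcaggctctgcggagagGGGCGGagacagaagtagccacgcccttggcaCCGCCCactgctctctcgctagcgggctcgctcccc
Rab3a promoter, chr16:18722274-18722523, minus strand: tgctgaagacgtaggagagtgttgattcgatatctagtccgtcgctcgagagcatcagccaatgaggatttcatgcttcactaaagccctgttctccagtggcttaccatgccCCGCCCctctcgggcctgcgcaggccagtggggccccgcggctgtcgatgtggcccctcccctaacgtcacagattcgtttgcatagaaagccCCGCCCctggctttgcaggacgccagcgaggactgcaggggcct

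Within these bases Vamp1 held 1 GC box and 1 cyclic AMP response element, Cplx1 held 2 GC boxes, Syn2 held 3 and Rab3a held 2. Their GC content was 50.4% for Vamp1, 68% for Cplx1, 66.8% for Syn2 and 60.4% for Rab3a. Windows reaching from 250 bases before to 50 after the start were given for 62 of the 78 genes. No window was given for the other 16, among them Snap25, Syt17 and Vamp3. Only the 250 bases before the start were searched. A GC box, on either strand, stood in 40 of these 62 genes (64.5%) and in 30.5% of 33469 windows. The 62 genes had 68 windows and counted if any window matched, so shares of genes and of windows are unlike units. The cyclic AMP response element stood in 2 genes, Syn1 and Vamp1 (3.23%), against 1.59% of all windows. TATAAA or its complement stood in 2 genes (3.23%) against 12.9%, and the median GC content was 61.6% against 51.2%. These are matches of letters only, and their overlap with other motifs was not counted.

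A second set of 5 genes tracked the dopamine neuron markers. Syt17, an atypical synaptotagmin, had values of 11.35, 11.69 and 11.98 in ethanol rats and 11.02, 11.53 and 11.80 in water rats, with overlapping ranges. It followed the dopamine marker mean with r = 0.981 and rho = 0.954 (permutation p = 1e-05 for both, adjusted p = 6.74e-04), with r = 0.985 within ethanol and 0.989 within water rats. Without the 2 farthest rats r was 0.975.

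Syt4 (r = 0.883, rho = 0.851; permutation p = 1.1e-04, adjusted p = 0.00273) and Stx7 (r = 0.877, rho = 0.907; adjusted permutation p = 0.00250) followed. Without the 2 farthest rats, r was 0.90 for Syt4 and 0.806 for Stx7. Syt5, a calcium-binding synaptotagmin, had r = 0.833 and rho = 0.861 (adjusted permutation p = 0.00413 for r). Rab3b had r = 0.733 and rho = 0.832 (adjusted permutation p = 0.0330 for r). Without the 2 farthest rats, r was 0.709 for Syt5 and 0.613 for Rab3b. Second probe sets gave r = 0.949 for Syt17 and 0.672 for Syt4 with the dopamine marker mean. Syt5 (r = -0.782), Syt4 (-0.768) and Stx7 (-0.737) had negative r with the joint inhibitory and fast-firing mean. With its GABA genes alone r was -0.043 for Syt5, 0.044 for Syt4 and -0.12 for Stx7, so those values do not describe a relation with GABA markers. The dopamine mean itself correlated at r = -0.287 with the neuron mean.

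Ethanol and water rats overlapped in the dopamine marker mean (12.77 to 13.45 against 12.60 to 13.28). None of its 9 tested genes was called, all 9 had higher means in ethanol rats, and their median difference was 0.16 log2 units. The 5 genes that tracked this mean had higher means in ethanol rats as well. With the neuron and dopamine marker means as covariates, the difference of Rab3b was 0.12 in place of 0.21 and that of Stx7 0.055 in place of 0.099 (limma adjusted p = 0.493 and 0.432). Syt17 and Syt5 were named after their values were seen.

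**Figure D3:**
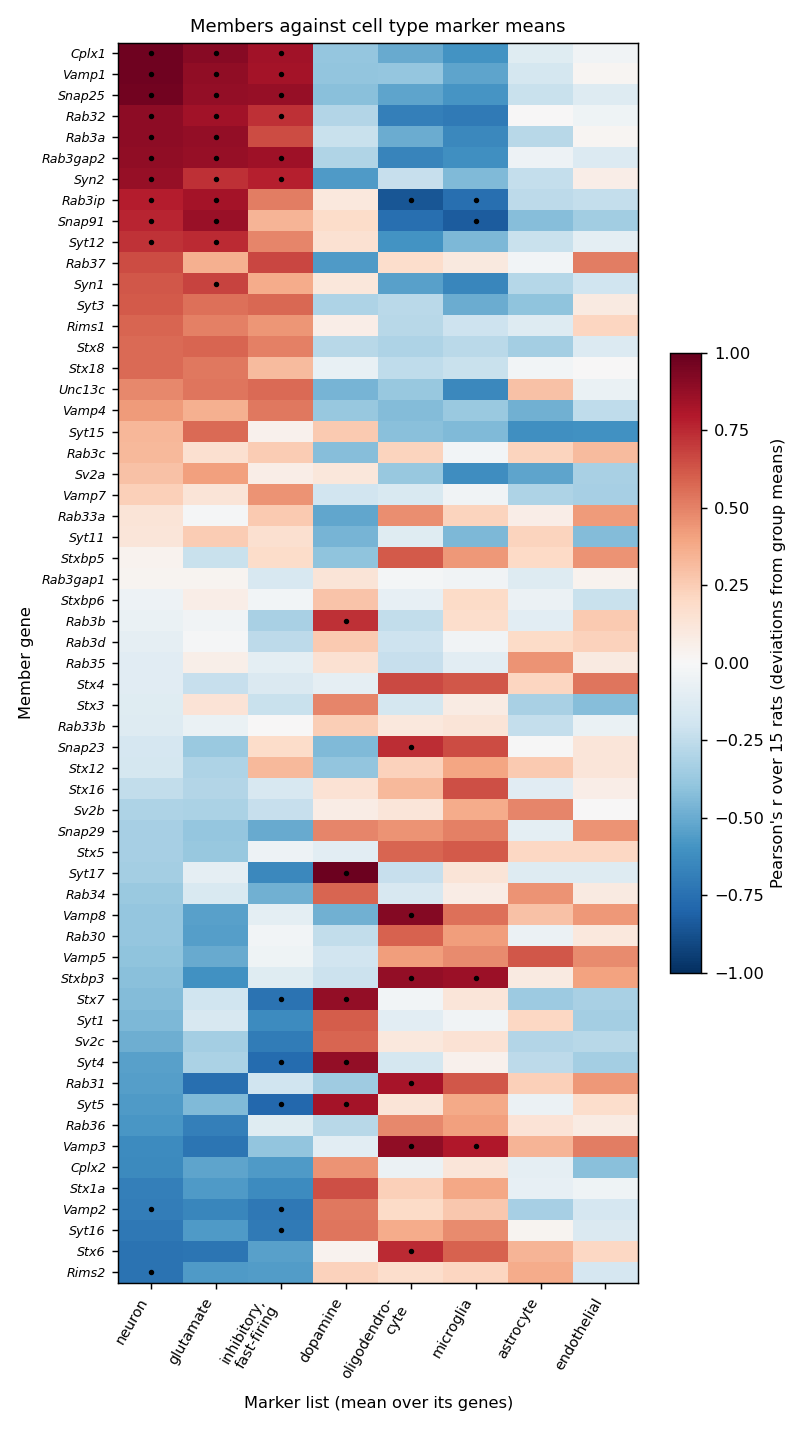
Pearson's r over 15 rats (colour) between each of the 59 tested genes and the mean of each of 8 marker lists, both as deviations from group means. Dots mark the 50 relations with an adjusted permutation p below 0.05, and rows are sorted by r with the neuron markers, from Cplx1 (0.976) down to Rims2 (-0.741).

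Oligodendrocyte markers were tracked by 7 genes, 1 of which, Rab3ip, was listed under neuronal exocytosis. Vamp8, a SNARE of secretory granules and endosomes named after its values were seen, ran from 9.70 to 9.94 (median 9.81) in ethanol rats and from 9.62 to 10.08 (median 9.77) in water rats. Its r with the oligodendrocyte mean was 0.919 and rho 0.896 (permutation p = 3e-05, adjusted p = 0.00142), and r was 0.835 without the 2 farthest rats. Vamp3 had r = 0.885 (rho = 0.796, adjusted permutation p = 0.00300) and Stxbp3 r = 0.882 (rho = 0.768, adjusted permutation p = 0.00218).

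Rab31, an endosomal Rab, had r = 0.820, Stx6 0.746 and Snap23 0.742, while Rab3ip, an exchange factor for Rab GTPases, had r = -0.853 (adjusted permutation p from 0.00978 to 0.0320). By rho, Stx6 and Snap23 did not pass (adjusted permutation p = 0.0902 and 0.0781). Without the 2 farthest rats, r was 0.602 for Rab31, 0.670 for Stx6, 0.611 for Snap23 and -0.746 for Rab3ip. Second probe sets gave weaker values, with r = 0.162 for Rab31, 0.565 for Snap23 and -0.380 for Rab3ip. Water rat 5, the rat highest in Vamp3, Vamp8 and Stxbp3, weighed on this set. Without it 3 genes passed in place of 7, with r = 0.846 for Vamp8, 0.777 for Vamp3 and 0.799 for Stxbp3. Rab31 (r = 0.635) and Rab3ip (-0.709) then did not pass (adjusted permutation p = 0.107 and 0.0780). Without ethanol rat 1 there were 4. Vamp3 (r = 0.798) and Stxbp3 (0.854) also followed the microglial mean, which correlated at r = 0.729 with the oligodendrocyte mean.

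Some oligodendrocyte and microglial markers differed between ethanol and water rats. The oligodendrocyte mean ran from 13.18 to 13.51 in ethanol and from 13.43 to 13.86 in water rats, with 3 of 10 genes called lower (Ugt8, Mal and Cldn11) and Opalin higher by 0.20 log2 units without passing (limma adjusted p = 0.327). The microglial mean ran from 9.53 to 9.82 in ethanol and from 9.22 to 9.63 in water rats, with 3 of 12 genes called higher (Tyrobp, Trem2 and Ctss). A fit with the oligodendrocyte mean as covariate was added once the values were known. In it the difference of Vamp3 was -0.035 (limma adjusted p = 0.648) and that of Snap23 -0.018, against -0.14 and -0.11 without it. Vamp8 then differed by 0.20 (SE 0.041, limma adjusted p = 0.0209), the only one of the 59 genes called in that fit. Over the array that fit called 344 of 18625 probe sets (1.85%), so 1 gene of 59 is close to the array's share. Most of the ethanol rats had a lower marker mean than any water rat, so the covariate and the group cannot be told apart.

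**Figure D4:**
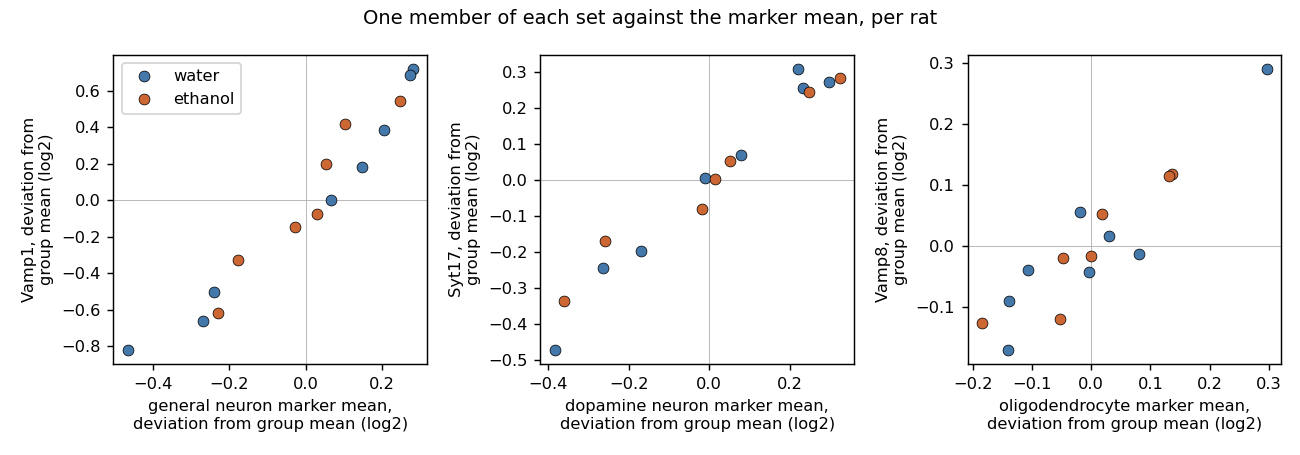
Vamp1 against the general neuron marker mean, Syt17 against the dopamine neuron mean and Vamp8 against the oligodendrocyte mean, each as a rat's deviation from its group mean in log2 units, for 8 water and 7 ethanol rats. Subtracting group means puts both groups on the same centre, so the panels cannot show whether the groups share a line. Within groups the values rise together in each panel (r = 0.972, 0.981 and 0.919). Water rat 5 lies at the far right of the oligodendrocyte panel.

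Neuron marker means as covariates gave smaller errors for the first set. With the neuron and dopamine means in the fit, also added once the values were known, the SE of Vamp1 went from 0.24 to 0.058 and that of Cplx1 from 0.17 to 0.041. Vamp1 then differed by -0.16 (limma adjusted p = 0.210) and Cplx1 by -0.12 (adjusted p = 0.181). Snap25 differed by 0.013 (SE 0.027) and Syt17 by 0.053 (SE 0.034). None of the 59 genes was called in this fit, in which 249 of 18625 probe sets (1.34%) were.

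The release genes also correlated with one another in these sets. Of 1711 pairs, 14 had r above 0.9, the highest being Snap25 with Cplx1 (0.982), Vamp1 with Cplx1 (0.980) and Vamp1 with Snap25 (0.967). Outside the first set, Syt4 and Stx7 formed the single other pair above 0.9. The lowest r values were those of Vamp3 with Rab3ip (-0.895) and Syn2 with Stx1a (-0.851). These pair values are descriptions over the 15 rats, and the median size of r over all pairs was 0.282.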

How the data were processed

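RNA of 15 rats was amplified in 2 cycles from 25 ng, per the labels' protocols, and measured on 1 array each. The authors deposited log2 values made with RMA, per the submitters' processing notes. RMA equalizes the distributions of the arrays and removes shifts common to most transcripts. Array values can be compressed in very dim and very bright probe sets. The table held 31099 probe sets, 57 of them controls, with 0 missing values. Signal over background was known only through the mean level, and the number of arrays limits the precision.

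Probe sets with a mean at or above the 40th percentile (18625) entered 1 model of group alone (limma 3.58.1, R 4.3.3, two-sided moderated test), with Benjamini-Hochberg adjustment over all of them and a threshold of 0.05. The fit was tested on simulated data. Correlations were computed in Python 3.11.15 on deviations from group means. Gene names came from GEO's platform annotation, and all 78 symbols were found in a RefSeq table of the GRCr8 assembly. One chosen probe set was of a kind that can bind several transcripts and 6 of a kind shared by forms of 1 gene.

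The genes, roles and marker lists were chosen with earlier results of these data known. Named genes were the 12 smallest p values, the highest mean in each role, core release genes, the 6 largest SDs among water rats, and in the other lists the called genes or the 3 smallest p values. Genes named for a correlation, a second probe set or an extreme pair were chosen after their values were seen. Alternatives were other filters, scalings, variance settings, a block for the rat number, each rat left out and marker covariates.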

Additional observations from a re-analysis of the deposited data

Results flagged for a closer look

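Of 76 groups examined, 2 for each of 38 named genes, 3 held a rat farther from the others than Dixon's 95% limit, and chance flags about 1 group in 20. Rab31 was highest in water rat 5, at 11.26 against 11.07 in the next rat, and this rat also had the highest oligodendrocyte marker mean. Syt3 was highest in ethanol rat 6, at 9.81 against 9.63. Syt6, a gene below the filter on dim probe sets, was highest in ethanol rat 5, at 7.39 against 6.61.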

How the results depend on the processing

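None of the 59 genes was called under any other filter, scaling or variance setting, with the block or without any 1 rat; the neuron and dopamine covariates gave none either, and the oligodendrocyte covariate gave 1. The smallest adjusted p of any gene was 0.112 to 0.324 without 1 rat. Probe sets called over the array numbered 59 with the replicate block, 344 with the oligodendrocyte covariate, and 100 to 180 without 1 rat (100 without ethanol rat 7 and 102 without ethanol rat 8). Rats sharing a number had correlations of -0.415 to 0.295, over 0.1 in 4 of 7 pairs, and 1 of 7 matched its own number best, so the block was kept as an alternative only. Genes correlated with the oligodendrocyte mean numbered 3 to 9 without 1 rat.

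Of 35 named differences, those near 0 changed sign under some settings, none of them called. With the oligodendrocyte covariate Rab31 was at 0.061, Rab32 at -0.25, Sv2a at -0.019 and Sv2b at 0.0037. With the neuron and dopamine covariates Snap25 was at 0.013 and Stx1a at -0.050. Quantile normalization gave -1.35e-04 for Rab3c, 0.0051 for Snap25 and 0.0029 for Sv2b, and the median shift -0.010 for Rab3c and -0.0055 for Stxbp3. Rab3c was at -0.025 with the replicate block, Stxbp3 at -0.012 with array weights and Rab3a at 0.025 by its second probe set. Without 1 rat, values ran from -0.025 to 0.040 for Rab3c, -0.035 to 0.024 for Snap25, -0.035 to 0.056 for Stx1a, -0.017 to 0.054 for Stxbp3, -0.015 to 0.011 for Sv2b and -0.015 to 0.13 for Rab32 (negative without water rat 5). The cause of these changes was not tested.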
